A study of Mus musculus with 16 samples.

Results

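The genes described here are 9 mouse genes for transcriptional repressors that recruit the histone demethylase LSD1 or work with it: *Gfi1*, *Gfi1b*, *Insm1*, *Snai1*, *Snai3*, *Zeb1*, *Zeb2*, *Prdm1* and *Bcl6*. They were chosen by name, 9 of 26180 genes with a curated RefSeq transcript on the mm10 genome, of which 21000 code for proteins. For each gene, every peak that overlapped the gene body or the 20 kb on either side was taken from 12 ChIP-seq peak lists. A peak within 1 kb of a transcription start site (TSS) of the gene was counted as a promoter peak, and any other as a peak elsewhere. The 9 windows covered 759 kb and held 171 peaks, of which 72 were at a TSS of the gene itself and 99 were elsewhere.

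All cells were CD8+ T cells from spleens of OT1 mice, which carry a transgenic T-cell receptor for a peptide of ovalbumin. They were activated for 48 h on plate-bound anti-CD3 (2 μg/ml) with soluble anti-CD28 and 20 ng/ml IL-2, and then expanded in IL-2 for 3 days. During both steps the cells received either 0.5 μM GSK2879552 (GSK), an irreversible LSD1 inhibitor, or vehicle (Veh). Chromatin was precipitated with antibodies to RNA polymerase II (Pol II), to LSD1, to 3 methylation states of H3K4 (H3K4me1, H3K4me2 and H3K4me3) and to H3K27ac, 1 library per antibody and treatment. Since no antibody has a replicate, no difference between Veh and GSK could be set against a spread between replicates, and no test or p-value across libraries is given.

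GFI1, GFI1B, INSM1 and the Snail proteins are zinc-finger repressors whose N-terminal SNAG domain resembles the tail of histone H3 and docks in the catalytic site of LSD1. ZEB1 and ZEB2 are zinc-finger and homeodomain repressors that bind E-boxes and recruit CtBP together with LSD1 complexes. PRDM1 (BLIMP-1) drives effector differentiation of lymphocytes, and BCL6 opposes it and favors memory and follicular programs. The substrates of LSD1 are H3K4me1 and H3K4me2, while H3K4me3 is found at active or poised promoters and H3K27ac at active promoters and enhancers.

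The 12 lists held between 2751 peaks (H3K27ac, GSK) and 40272 peaks (H3K4me1, GSK). The H3K27ac list had 7410 peaks in Veh and the H3K4me2 list 15219 in Veh and 9437 in GSK, so promoters called for these marks in Veh alone are also given with the longer list cut to the length of the shorter. The LSD1 lists were close in length, with 21252 peaks in Veh and 19919 in GSK, and their median fold enrichment over local background was 4.20 and 4.47. The lists hold no read numbers. By the totals stated in the study's methods, which were not used for scaling here, the GSK library was far shallower than the Veh library for H3K27ac, somewhat shallower for H3K4me2, and deeper for H3K4me1 and Pol II. The authors drew equal read numbers at random to compare signals. Whether the lists were called from such reads is not stated. The label of the cells was checked against marker genes. H3K4me3 promoter peaks were present in both treatments at 6 of 6 markers of CD8+ T cells (*Cd3e*, *Cd8a*, *Cd8b1* and *Gzmb* among them), and at 0 of 4 B-cell, 0 of 2 NK-cell and 0 of 2 CD4+ T-cell markers. They were also present at 1 of 4 myeloid markers (*Cd14*) and 1 of 4 erythroid or megakaryocyte markers (*Klf1*). Neither of these, nor *Cd8a*, had a Pol II or H3K27ac promoter peak in either list. Of the 6 markers of CD8+ T cells, H3K27ac was called at 4 in Veh and 2 in GSK, and Pol II at 4 and 5. Over all protein-coding genes, H3K4me3 was at 56.3% of promoters in Veh and 57.5% in GSK. The shares were 22.9% and 9.55% for H3K27ac, and 33.1% and 28.1% for Pol II.

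A promoter peak was found in 61 of the 108 combinations of gene and list. *Snai1* had one in 10 of the 12 lists, *Insm1*, *Snai3*, *Zeb2* and *Bcl6* in 8 each, *Gfi1* and *Zeb1* in 7 each, *Prdm1* in 5 and *Gfi1b* in 0. LSD1 was found at the promoters of 6 of the 9 genes in Veh, where 40.9% of all protein-coding genes had such a peak, and at 8 in GSK, where 46.9% did. The 2 that were called in GSK only were *Snai3* and *Prdm1* (10.8% of all genes), and 0 were called in Veh only (4.85%). At a −log10 q of at least 5, the LSD1 promoters were 3 in Veh (*Snai1*, *Zeb1* and *Bcl6*) and 2 in GSK (*Snai3* and *Zeb2*). The share of all genes at that threshold was not computed. H3K4me3 covered the promoters of 8 of the 9 genes in both treatments, all but *Gfi1b*, against 56.3% of genes in Veh and 57.5% in GSK. None was covered in 1 treatment only (0.319% of genes in Veh only and 1.53% in GSK only).

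For H3K4me1, 3 promoters were called in Veh (33.3% of genes) and 4 in GSK (40.4%), with *Snai1* called in GSK only (10.8%) and 0 in Veh only (3.70%). The call at *Snai1* rests on the limit of 1 kb, since the nearest edge of the GSK peak lay 941 bp from the TSS and that of the Veh peak 1011 bp, with folds of 3.17 and 3.14. For H3K4me2, 6 promoters were called in Veh (44.2%) and 5 in GSK (32.0%), with *Gfi1* in Veh only (14.3%) and 0 in GSK only (2.09%). With lists of equal length the Veh peak at *Gfi1* dropped out. For H3K27ac, 3 promoters were called in Veh (22.9%) and 1 in GSK (9.55%), with *Gfi1* and *Snai1* in Veh only (13.8%) and 0 in GSK only (0.390%). With lists of equal length both calls dropped out and only *Bcl6* was called in Veh, as it was in GSK. For Pol II, 5 promoters were called in Veh (33.1%) and 4 in GSK (28.1%), with *Snai3* and *Zeb1* in Veh only (8.28%) and *Gfi1* in GSK only (3.30%). At a −log10 q of at least 5, Pol II was left at *Snai1* and *Bcl6* in Veh and at 0 promoters in GSK. Shares of all genes were not computed at this threshold or with lists of equal length. Over the 5213 genes with promoter Pol II in both lists, the median GSK to Veh ratio of fold was 0.809.

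**Figure D1:**
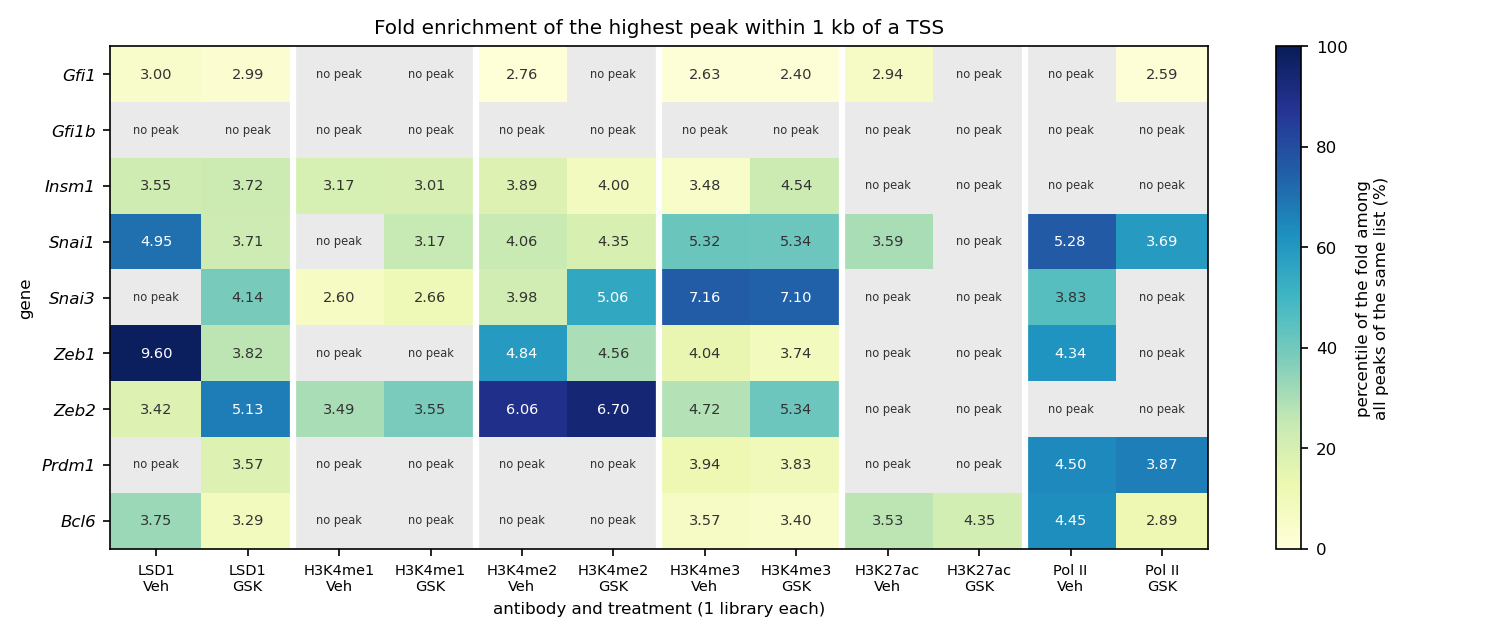
Fold enrichment over local background of the highest promoter peak for each of the 9 genes (rows) in each of the 12 lists (columns, 1 library each). Colors give the percentile of that fold among all peaks of the same list, and grey cells hold no peak. The darkest cells are LSD1 at *Zeb1* in Veh (9.60) and H3K4me2 at *Zeb2* (6.06 and 6.70), and the row of *Gfi1b* is empty.

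Among the SNAG-domain genes, *Gfi1* (chr5:107716655-107725805, minus strand, with TSSs at 107725805 and 107724343) codes for a repressor of lymphoid and myeloid progenitors. Its promoter carried LSD1 at nearly the same low fold in both lists, 3.00 in Veh and 2.99 in GSK, and both values sat low in their lists (percentiles 4.64 and 2.90). The Veh summit was 391 bp upstream of the TSS, in a peak of 1340 bp, and the GSK summit 254 bp downstream, in a peak of 373 bp. H3K4me3 at the promoter had folds of 2.63 in Veh and 2.40 in GSK. The width of this mark was 3763 bp in Veh and 3956 bp in GSK, wider than at 99.3% and 99.6% of genes with the mark. H3K4me2 (2.76) and H3K27ac (2.94) were called at the promoter in Veh, and Pol II (2.59, 134 bp downstream of the TSS, −log10 p 4.43) in GSK. Over a coding exon, 2.86 and 2.88 kb downstream of the inner TSS, H3K4me1 (3.48) and H3K4me2 (3.51) were called together in the GSK lists alone.

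The 300 bp around the Veh LSD1 summit of *Gfi1* lie upstream of the TSS and touch no exon of a curated transcript. They are printed because they hold the core letters of the GFI1 site, AAATCA, on the opposite strand. The sequence is mm10 chr5:107726046-107726345, minus strand, read 5′ to 3′ along the gene, with the match in capitals:
Gfi1, Veh LSD1 summit: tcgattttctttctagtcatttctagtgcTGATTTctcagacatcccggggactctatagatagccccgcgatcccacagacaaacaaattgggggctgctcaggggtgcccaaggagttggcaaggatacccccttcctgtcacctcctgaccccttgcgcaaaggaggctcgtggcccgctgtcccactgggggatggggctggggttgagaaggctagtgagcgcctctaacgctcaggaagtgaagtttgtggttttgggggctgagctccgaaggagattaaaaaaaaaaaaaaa

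*Gfi1b* (chr2:28609450-28621982, minus strand), the paralog that acts in erythroid cells and megakaryocytes, had no peak at its own promoter in any of the 12 lists. The erythroid markers other than *Klf1* lacked H3K4me3 as well. All 10 peaks of its window lay between 18.2 and 19.5 kb upstream, at the TSS of *Tsc1*, a neighboring gene of the mTOR pathway. These peaks belong to the window by its fixed length and were counted as peaks elsewhere.

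*Insm1* (chr2:146221997-146225020, plus strand) codes for a repressor known from neuroendocrine cells. Its promoter carried LSD1 in both lists, at a fold of 3.55 in Veh and 3.72 in GSK, with summits 394 and 454 bp upstream of the TSS. The 3 H3K4 methylation states were called as well, whereas H3K27ac and Pol II were not called at the promoter in either treatment. H3K4me1 had folds of 3.17 and 3.01, and H3K4me2 of 3.89 and 4.0. H3K4me3 had a fold of 3.48 in Veh and 4.54 in GSK, a ratio of 1.30, which was above that of 98.7% of the 11750 genes with the mark in both lists. Its −log10 p was 6.59 in Veh and 14.8 in GSK. The LSD1 window at *Insm1* also held an AAATCA match on the opposite strand, shown in capitals (mm10 chr2:146221453-146221752, plus strand, upstream of the gene):
Insm1, Veh LSD1 summit: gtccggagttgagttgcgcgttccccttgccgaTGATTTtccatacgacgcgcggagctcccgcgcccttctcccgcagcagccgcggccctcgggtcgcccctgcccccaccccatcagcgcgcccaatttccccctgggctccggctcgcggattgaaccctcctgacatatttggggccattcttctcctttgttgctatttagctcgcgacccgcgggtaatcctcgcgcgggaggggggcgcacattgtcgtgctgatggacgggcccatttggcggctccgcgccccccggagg

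*Snai1* (chr2:167538195-167542814, plus strand) codes for the Snail repressor of epithelial genes. It had promoter peaks in more lists than any other of the 9 genes, with all 6 antibodies represented. LSD1 had a fold of 4.95 in Veh, with its summit 232 bp upstream of the TSS, and 3.71 in GSK, with its summit 68 bp downstream. The ratio was 0.749, where the median over the 7581 genes bound in both lists was 1.15 and 3.64% of genes had a lower ratio. Pol II at the TSS had a fold of 5.28 in Veh and 3.69 in GSK, a ratio of 0.699 beside a median of 0.809 over 5213 genes. H3K4me2 (4.06 and 4.35) and H3K4me3 (5.32 and 5.34) were close in the 2 treatments. H3K4me1 was called 21.3 kb downstream in Veh only (3.23, −log10 p 8.30), and a further Pol II peak 617 bp upstream of the TSS in GSK only (3.65, −log10 p 5.99). The Veh LSD1 window is printed because it holds a CAGGTG E-box, the site of ZEB and Snail proteins, on the opposite strand, and a TTCNNNGAA match, the site shared by BCL6 and STAT proteins (mm10 chr2:167537813-167538112, plus strand, upstream of the gene, both matches in capitals):
Snai1, Veh LSD1 summit: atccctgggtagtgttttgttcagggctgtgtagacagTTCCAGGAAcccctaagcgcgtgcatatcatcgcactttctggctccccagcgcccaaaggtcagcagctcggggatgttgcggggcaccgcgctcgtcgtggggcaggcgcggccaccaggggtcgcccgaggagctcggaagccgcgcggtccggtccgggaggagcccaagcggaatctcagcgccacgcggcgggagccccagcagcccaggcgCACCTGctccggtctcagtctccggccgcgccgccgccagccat

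*Snai3* (chr8:122454205-122460689, minus strand) codes for a Snail family member found in lymphoid cells. LSD1 was called at its promoter in GSK only, at a fold of 4.14 (−log10 p 8.29), with the summit 187 bp upstream of the TSS. H3K4me2 at the same place had a fold of 3.98 in Veh and 5.06 in GSK, a ratio of 1.27 that was above 94.2% of the 6278 genes with the mark in both lists. H3K4me3 was 7.16 in Veh and 7.10 in GSK, the highest of the 9 genes in both lists. H3K4me1 was 2.60 and 2.66. Pol II was called at the TSS in Veh only (3.83, −log10 p 5.82). The GSK LSD1 window at this promoter held 2 CAGGTG matches, both on the opposite strand (mm10 chr8:122460726-122461025, minus strand, upstream of the gene, matches in capitals):
Snai3, GSK LSD1 summit: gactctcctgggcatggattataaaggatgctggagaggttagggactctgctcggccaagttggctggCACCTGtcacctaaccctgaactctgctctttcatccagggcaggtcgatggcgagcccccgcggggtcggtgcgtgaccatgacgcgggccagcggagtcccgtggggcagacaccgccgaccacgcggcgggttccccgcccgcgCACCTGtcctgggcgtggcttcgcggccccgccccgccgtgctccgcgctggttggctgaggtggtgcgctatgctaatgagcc

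The flanks of *Snai3* held 26 of the 99 peaks elsewhere, many of them at the promoters of *Rnf166* and *Ctu2* upstream and *Mvd* downstream. At 13.5 kb upstream of *Snai3*, LSD1 was called in both treatments (3.94 and 3.55) together with Pol II (4.86 and 3.13) and H3K27ac (3.50 and 4.27). This was the only LSD1 peak elsewhere in the Veh list for this gene. In GSK the strongest by −log10 p was another site, 15.4 kb upstream at the TSSs of *Ctu2* and *Rnf166* (fold 4.12, −log10 p 7.69), which had no Veh peak.

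Of the 5 other SNAG-domain genes listed for comparison (*Snai2*, *Insm2*, *Scrt1*, *Scrt2* and *Ovol1*), 4 had LSD1 at the promoter in both treatments and none in 1 treatment only. Over all protein-coding genes, 40.9% had it in Veh and 46.9% in GSK, with 4.85% in Veh only and 10.8% in GSK only. All 5 had H3K4me1 in both (33.3% and 40.4% of all genes). H3K4me2 (44.2% and 32.0%) and H3K4me3 (56.3% and 57.5%) were at 3 in both. H3K27ac (22.9% and 9.55%) and Pol II (33.1% and 28.1%) were at 0 in either. *Scrt1* had an LSD1 fold of 10.3 in Veh and 12.6 in GSK, and *Scrt2* of 6.92 and 12.8, neither with H3K4me2 or H3K4me3. *Snai2* (4.80 and 4.17) and *Ovol1* (5.08 and 3.73) had LSD1 beside H3K4me3. *Insm1* had the same set of marks as *Snai2* and *Ovol1*.

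*Zeb1* (chr18:5591860-5775468, plus strand, with TSSs at 5591860 and 5592647) codes for an E-box repressor with roles in T-cell development and memory. Its promoter had the highest LSD1 fold of the 9 genes in Veh, 9.60 with a −log10 p of 48.1, above 98.1% of all LSD1 peaks of that list. In GSK the peak was still called but its fold was 3.82 with a −log10 p of 7.60, at percentile 26.8 of the list. The ratio of 0.398 was lower than that of all but 4 of the 7581 genes bound in both lists (0.0528% of them), which spread from 0.776 at the 5th percentile to 1.69 at the 95th. The peaks overlapped and were of similar width, 1605 bp in Veh and 1716 bp in GSK, but their summits differed. The Veh summit was 316 bp downstream of the TSS at 5591860. The GSK summit was 727 bp downstream of it and 60 bp upstream of the TSS at 5592647. Ranked by −log10 p in place of fold, the place of the promoter in its list fell by 44.2 percentage points from Veh to GSK, and ranked by fold it fell by 71.3. This is 1 library against 1 library, and *Zeb1* shares the promoter region with the TSS of *Gm10125*.

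H3K4me3 at the *Zeb1* promoter had a fold of 4.04 in Veh and 3.74 in GSK and kept its width (2517 and 2473 bp, percentiles 95.2 and 95). H3K4me2 had 4.84 and 4.56 downstream of the TSS, and another Veh peak 412 bp upstream (3.76, −log10 p 7.71) had no GSK peak over it. Pol II was called 144 bp upstream of the TSS in Veh (4.34, −log10 p 6.98) and was not called at the promoter in GSK. Pol II peaks further into the gene were at 37.3 kb in Veh (3.28) and at 115 and 128 kb in GSK (3.67 and 2.92). H3K4me1 and H3K27ac were not called at the promoter in either list.

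A further site lay in intron 1 of *Zeb1*, 11.4 kb downstream of the TSS. LSD1 was called there in both treatments, at 4.89 in Veh and 3.83 in GSK, with H3K4me2 (3.83 and 4.29) and H3K4me3 (6.59 and 6.85). No curated TSS lies within 1 kb of this site. At 86.8 kb an LSD1 peak of low −log10 p (4.11, fold 3.52) was called in GSK only, over an H3K4me1 peak called in both (5.57 and 5.62).

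**Figure D2:**
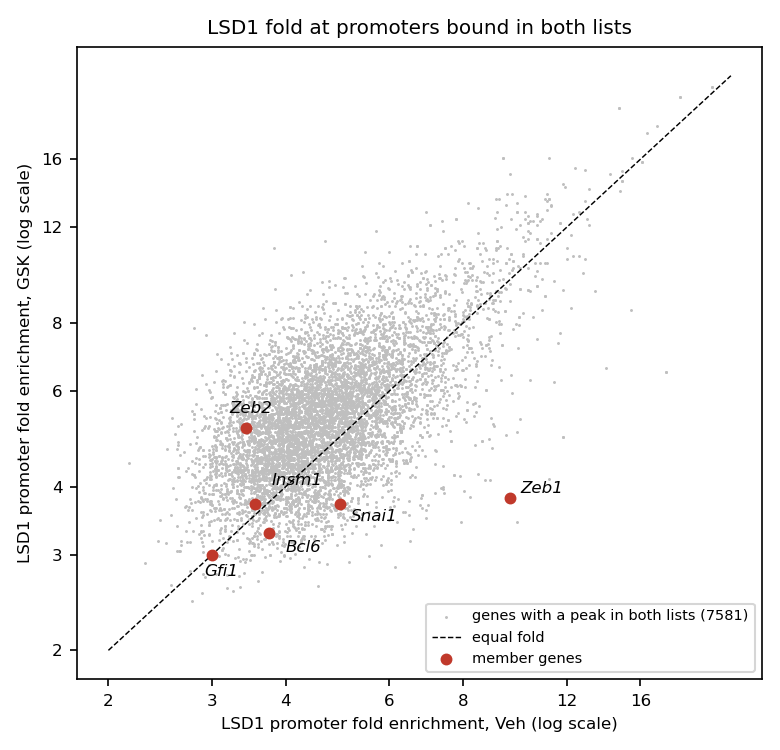
LSD1 fold enrichment of the highest promoter peak in Veh (x axis) and GSK (y axis), both on log scales, for the 7581 protein-coding genes with a promoter peak in both lists (grey) and the 6 member genes among them (red). The dashed line marks equal folds. *Zeb1* lies below the cloud (9.60 and 3.82), *Zeb2* above the line (3.42 and 5.13) and *Gfi1* on it (3.00 and 2.99).

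*Zeb2* (chr2:44983512-45117442, minus strand, 7 TSSs) codes for a repressor that promotes terminal effector differentiation of CD8+ T cells. Its LSD1 values ran in the opposite direction to those of *Zeb1*. The peak at the TSS at 45110277 had a fold of 3.42 in Veh and 5.13 in GSK, a ratio of 1.5 that was above 87.2% of genes, and moved from percentile 17.7 to 67.3. Another LSD1 peak, at the most upstream TSS (45117442), was called in GSK only (4.91, −log10 p 7.63). GSK-only LSD1 peaks also lay in intron 3, at 25.4 kb (3.18) and 57.5 kb (3.85) from the nearest TSS, with −log10 p of 3.49 and 4.94 and no histone mark over them. The numbers called here were 1 LSD1 peak in Veh and 4 in GSK.

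H3K4me2 at the upstream TSS of *Zeb2* was the highest of the 9 genes, 6.06 in Veh and 6.70 in GSK (percentiles 89.3 and 93.8). H3K4me3 had 4.72 and 5.34 there and 3.74 and 4.12 at the inner promoter, and its summed width was 2927 bp in Veh and 2646 bp in GSK (percentiles 97.5 and 96.3). H3K4me1 was called at the upstream TSS in both treatments (3.49 and 3.55). In GSK, 2 further H3K4me1 peaks beside the internal TSSs had folds of 2.99 and 3.27, with their nearest edges 820 and 994 bp from a TSS. Neither Pol II nor H3K27ac was called anywhere at a *Zeb2* TSS.

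*Prdm1* (chr10:44437174-44458748, minus strand) codes for BLIMP-1. LSD1 was called at its promoter in GSK only, at a fold of 3.57 (−log10 p 6.06) and 91 bp downstream of the TSS. H3K4me3 (3.94 and 3.83) and Pol II (4.50 and 3.87) were called there in both treatments, and H3K27ac, H3K4me1 and H3K4me2 in neither. No H3K4me2 peak was called anywhere in the *Prdm1* window. These calls hold for curated TSSs. With the TSSs of all RefSeq transcripts, predicted ones included, *Prdm1* had H3K4me1 and H3K4me2 promoter peaks in both treatments. The H3K4me2 peaks counted then lay outside the window used here.

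A pair of sites away from the *Prdm1* promoter carried LSD1 in both lists. One lies in intron 3, where LSD1 had a fold of 4.99 in Veh, with its summit 10.4 kb downstream of the TSS, and 4.06 in GSK, with its summit at 11.1 kb. H3K4me3 (4.79 and 4.19) and H3K27ac (3.33 and 4.48) covered the same site in both treatments, and this was the only H3K27ac in the window. Its Veh H3K27ac peak dropped out when both lists were cut to equal length. The 300 bp around the Veh LSD1 summit of this site held none of the 4 motifs searched. Those around the GSK LSD1 summit lay outside the H3K27ac peak of the GSK list. The GSK LSD1 window of this site is printed because it holds a CAGGTG E-box (mm10 chr10:44447464-44447763, minus strand, intron 3, match in capitals):
Prdm1, GSK LSD1 summit in intron 3: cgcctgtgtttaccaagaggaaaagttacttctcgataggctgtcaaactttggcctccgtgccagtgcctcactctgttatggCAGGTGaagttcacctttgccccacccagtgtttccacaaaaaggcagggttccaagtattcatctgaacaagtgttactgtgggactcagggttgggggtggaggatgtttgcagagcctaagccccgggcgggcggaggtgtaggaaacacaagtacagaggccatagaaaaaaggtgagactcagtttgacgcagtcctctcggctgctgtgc
The other site lies 29.1 kb downstream of the TSS, beyond the end of the gene. LSD1 had a fold of 6.12 in Veh (−log10 p 16.3, percentile 87.4) and 2.84 in GSK (−log10 p 3.69, percentile 0.929), and H3K4me1 was called there in Veh only (2.20). This was the strongest LSD1 peak elsewhere in the Veh windows of all 9 genes. Its 300 bp held none of the 4 motifs searched and are printed as the site with the lower GSK value (mm10 chr10:44429488-44429787, minus strand, no capitals):
Prdm1, Veh LSD1 summit downstream: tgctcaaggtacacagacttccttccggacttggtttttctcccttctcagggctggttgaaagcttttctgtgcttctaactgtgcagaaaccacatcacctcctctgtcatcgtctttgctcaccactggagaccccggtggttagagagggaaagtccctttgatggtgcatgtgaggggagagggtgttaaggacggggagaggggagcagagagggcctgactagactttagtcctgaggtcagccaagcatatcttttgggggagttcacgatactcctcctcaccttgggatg

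**Figure D3:**
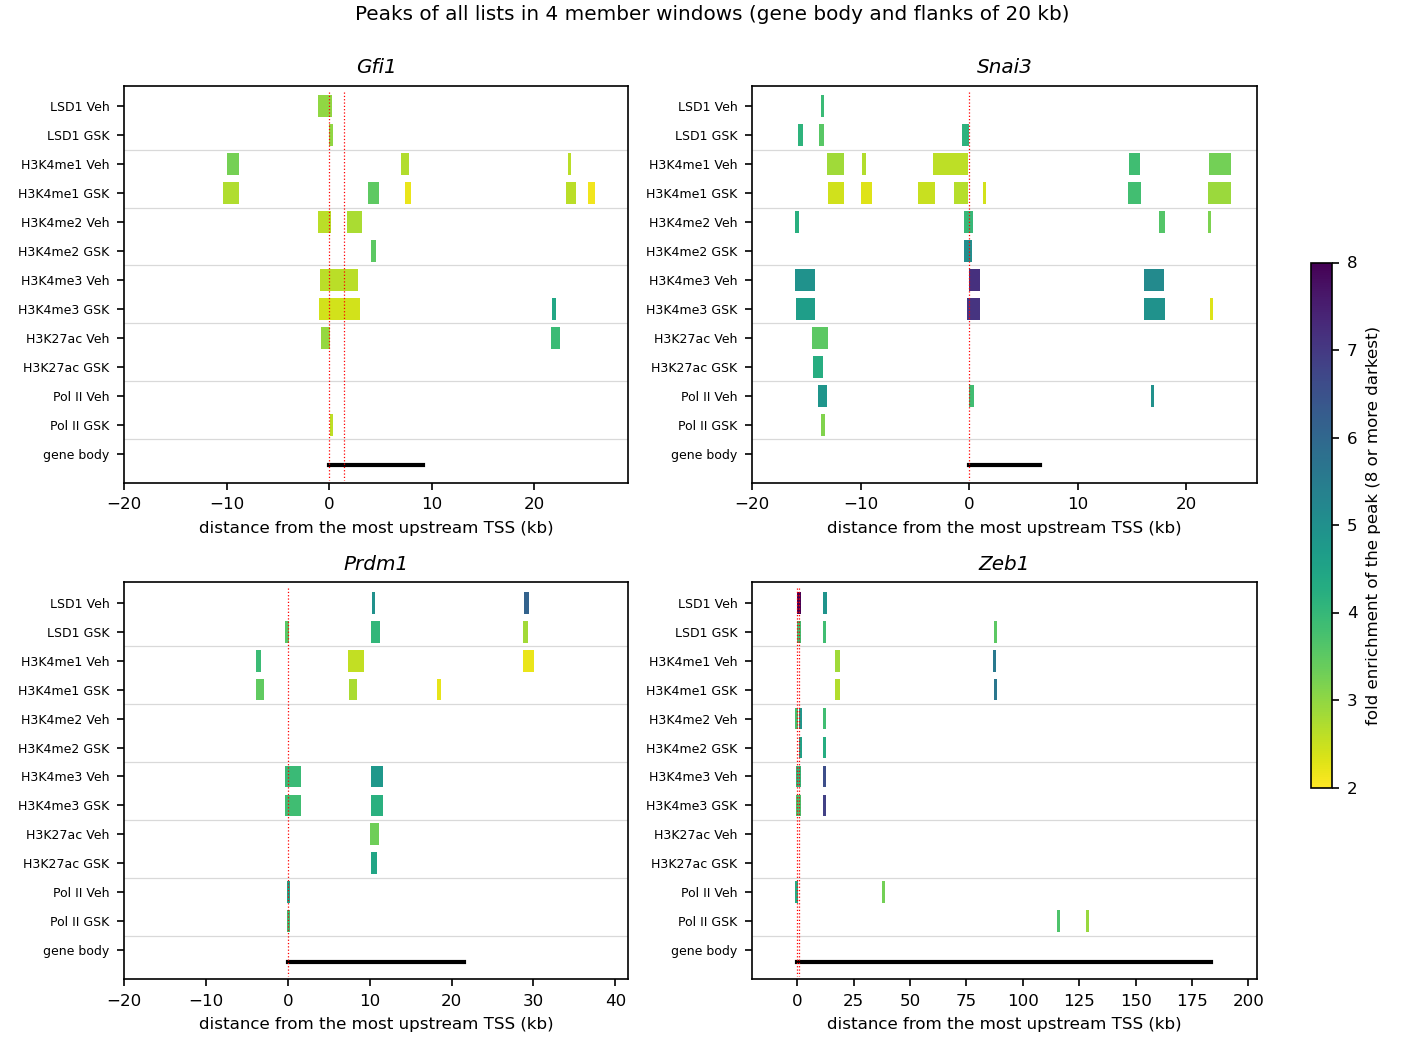
Peaks of the 12 lists (rows) in the windows of *Gfi1*, *Snai3*, *Prdm1* and *Zeb1*, by distance from the most upstream TSS in kb along the direction of transcription. Color gives the fold of each peak, red dotted lines mark curated TSSs, the black bar marks the gene body, and very narrow peaks are widened to stay visible. LSD1 at the *Snai3* and *Prdm1* TSSs appears in the GSK row alone, and the intronic sites of *Prdm1* and *Zeb1* appear in both LSD1 rows.

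*Bcl6* (chr16:23965050-23988852, minus strand, with TSSs at 23988852 and 23981283) was the only gene of the 9 with promoter H3K27ac in both treatments, at 3.53 in Veh and 4.35 in GSK. The ratio of 1.23 was near the median of 1.18 over the 1924 genes with that mark in both lists. LSD1 had a fold of 3.75 in Veh and 3.29 in GSK (ratio 0.879), with summits 286 bp downstream and 464 bp upstream of the TSS. Pol II had 4.45 in Veh and 2.89 in GSK, but these peaks did not overlap each other, lying 207 bp upstream and 870 bp downstream of the TSS. H3K4me3 had 3.57 and 3.40. In Veh the mark was called as 2 promoter peaks with a summed width of 1347 bp and in GSK as 1 peak of 2248 bp. Joined across gaps of 1 kb, the Veh width was 2233 bp. The GSK LSD1 window of *Bcl6* held 2 AAATCA matches (mm10 chr16:23989166-23989465, minus strand, upstream of the gene, matches in capitals):
Bcl6, GSK LSD1 summit: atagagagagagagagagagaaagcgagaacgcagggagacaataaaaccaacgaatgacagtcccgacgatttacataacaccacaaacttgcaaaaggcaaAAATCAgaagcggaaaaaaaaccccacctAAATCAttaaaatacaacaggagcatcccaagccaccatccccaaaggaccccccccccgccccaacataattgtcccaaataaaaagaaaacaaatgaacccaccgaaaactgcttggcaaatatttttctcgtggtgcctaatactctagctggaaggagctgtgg

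Widths of H3K4me3 at the promoters set several of the genes apart from the median of 1265 bp in Veh and 1248 bp in GSK. *Gfi1*, *Zeb2* and *Zeb1* had summed widths at percentiles 95 to 99.6 of all genes with the mark. At *Zeb2* the sum was over 2 separate peaks at different TSSs, of 1995 and 932 bp in Veh and 1980 and 666 bp in GSK. *Prdm1* had 1953 and 1930 bp (percentiles 85.5 and 85.9), *Insm1* 1727 and 1721 bp, *Snai1* 1360 and 1418 bp, and *Snai3* 1025 and 1181 bp. The folds of the broad peaks at *Gfi1* and *Zeb1* were low for the lists, at percentiles 1.40 and 14.0 in Veh. The fold of a broad region is an average over its length, so a broad peak and a narrow one are not compared by fold alone.

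**Figure D4:**
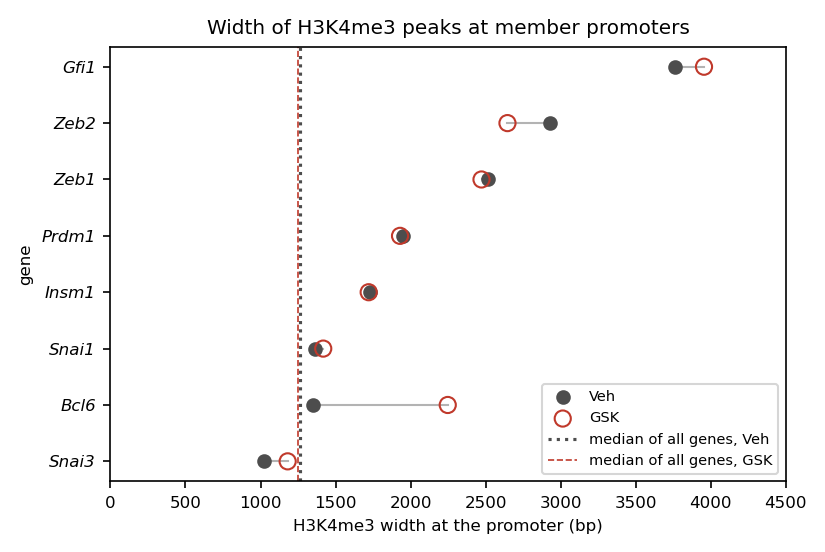
Summed width in bp of the H3K4me3 peaks at the promoters of the 8 member genes with the mark, in Veh (filled) and GSK (open circles), with the medians of all genes with the mark as vertical lines. *Gfi1* is widest in both (3763 and 3956 bp), and *Bcl6* had 1347 and 2248 bp, where the Veh signal called as separate peaks spans 2233 bp once gaps of up to 1 kb are joined.

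Over the genes bound by LSD1 in both lists, the median GSK to Veh ratio of promoter fold was 1.15, and 27.6% of the 7581 genes had a ratio below 1. Of the 6 member genes, 4 were below 1 (*Gfi1*, *Snai1*, *Zeb1* and *Bcl6*), with a median of 0.939. By fold, the order of LSD1 at the promoters in Veh was *Zeb1*, *Snai1*, *Bcl6*, *Insm1*, *Zeb2* and *Gfi1*. In GSK it was *Zeb2*, *Snai3*, *Zeb1*, *Insm1*, *Snai1*, *Prdm1*, *Bcl6* and *Gfi1*, with *Insm1* and *Snai1* apart by only 3.72 against 3.71. Without replicates it cannot be said which neighbors in either order differ. For H3K4me3, 5 of 8 members were below 1, with a median ratio of 0.982 beside 1.01 over 11750 genes. For H3K4me2, 1 of 5 was below 1 (median 1.07 beside 1.03), and for H3K4me1 1 of 3 (1.02 beside 0.976). For Pol II, 3 of 3 were below 1, with a median of 0.699 beside 0.809, and 82.5% of all genes were below 1 too. The ratio at *Bcl6* (0.649) is between peaks that do not overlap, unlike those at *Snai1* (0.699) and *Prdm1* (0.859).

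All LSD1 peaks of the Veh list in the 9 windows had an overlapping GSK peak, 6 of 6 at the member TSSs and 5 of 5 elsewhere (Wilson 95% interval 56.6 to 100% for the latter, counting error only). In the whole lists, 83.0% of Veh LSD1 peaks at a TSS and 34.9% away from one were overlapped. The classes are not the same, since a peak elsewhere was away from the TSSs of the member gene only. Of the 5 in Veh, 4 were not at the TSS of another gene and 1 was at that of *Tsc1*. The LSD1 peaks elsewhere numbered 5 in Veh and 10 in GSK, a ratio of 2.00, beside 0.937 for the whole lists. The interval of 0.716 to 5.59 covers counting error only and takes the peaks as independent. Since 5 of the GSK peaks overlap the 5 Veh peaks, and each list is 1 library, no conclusion is drawn from this interval. The 5 GSK peaks without a Veh partner were those named above at *Zeb1* and *Zeb2*, 1 beside *Tsc1* in the *Gfi1b* window and 1 at *Ctu2* and *Rnf166*. At a −log10 q of at least 5, the GSK list kept none of these peaks elsewhere.

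Among the other antibodies, H3K4me1 had the most peaks elsewhere, 22 in Veh and 23 in GSK, of which 19 Veh peaks were overlapped by a GSK peak (86.4%, beside 87.8% in the whole list). H3K4me1 was the densest mark in the windows, at 2.90 and 3.03 peaks per 100 kb, where the windows of all genes had 2.15 and 2.52. LSD1 had 0.659 in Veh and 1.32 in GSK (all genes 1.12 and 1.06). Pol II had 0.395 and 0.659 (0.772 and 0.711), and H3K4me2 0.791 and 0.527 (0.924 and 0.557). H3K4me3 had 0.923 and 1.19 (0.912 and 0.978), and H3K27ac 0.395 and 0.264 (0.441 and 0.157). H3K4me2 had 6 and 4 peaks, with 3 of 6 Veh peaks overlapped (50.0%, beside 55.3% in the whole list). H3K4me3 had 7 and 9, with 7 of 7 overlapped (97.3% in the whole list). H3K27ac had 3 and 2, with 2 of 3 overlapped (35.2% in the whole list), and Pol II had 3 and 5, with 1 of 3 overlapped (39.1% in the whole list). Intervals of the GSK to Veh ratios cover counting error only, from 1 library per list, so they cannot tell the treatments apart. Several ratios changed direction with the setting. With lists of equal length the GSK to Veh ratio went from 0.667 to 1.33 for H3K4me2 and from 0.667 to 2.0 for H3K27ac, and was 0.909 for H3K4me1. With 50 kb on each side it was 1.20 for H3K4me2 and 0.917 for Pol II (1.67 with the shorter flanks).

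**Figure D5:**
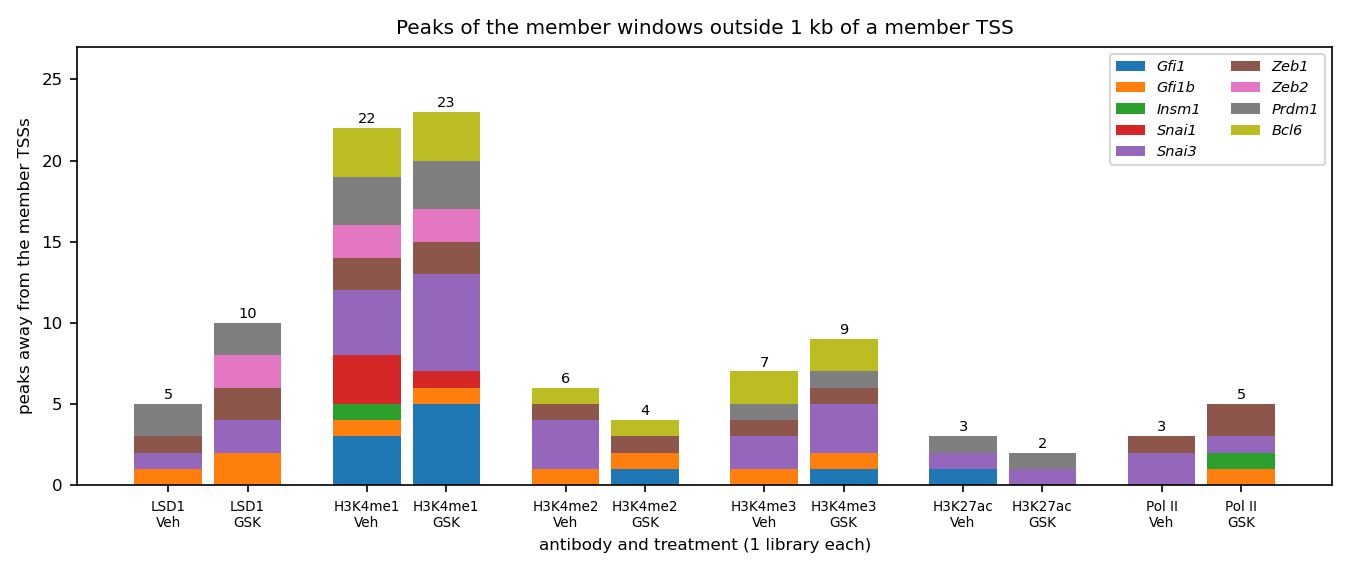
Number of peaks in the windows of the 9 genes that lie more than 1 kb from a TSS of the gene, by antibody and treatment (1 library each), with bars stacked by gene from 0. LSD1 goes from 5 in Veh to 10 in GSK and H3K4me1 from 22 to 23, and *Snai3* (purple) is present in every bar except H3K4me2 in GSK.

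LSD1 windows of 300 bp centered on each summit were searched on both strands for AAATCA (GFI1 and GFI1B), CAGGTG (ZEB and Snail, also bound by E proteins), AAGTGAAA (PRDM1, also an interferon response element) and TTCNNNGAA (BCL6, also STAT proteins). AAATCA was in 2 of 11 member windows in Veh (18.2%, interval 5.14 to 47.7%), beside 12.6% of all 21252 LSD1 windows, and in 2 of 19 in GSK (10.5%), beside 8.90% of 19919. CAGGTG was in 2 of 11 (18.2% beside 23.9%) and in 5 of 19 (26.3% beside 24.1%). AAGTGAAA was in 0 of 11 and 0 of 19, beside 1.68% and 1.34%, which allows shares of up to 25.9% and 16.8%. TTCNNNGAA was in 2 of 11 (18.2% beside 9.27%) and in 1 of 19 (5.26% beside 6.72%). The Veh window of *Bcl6* itself, part of which is exon and is not printed, held 4 matches of TTCNNNGAA and 1 of CAGGTG. Every interval held the share of the whole list. A match is a run of letters and not a measured site, and no match says nothing of binding elsewhere.

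Promoter sequences from 250 bp before to 50 bp after a TSS were in the RefSeq table (mm10) for 6 of the 9 genes, all but *Insm1*, *Snai3* and *Zeb1*. GC content ran from 44.3% at *Gfi1b*, with 7 CpGs, to 70.0% at *Snai1*, with 34 CpGs. The medians of 20488 promoters were 57.0% and 14.0 CpGs. *Gfi1b*, the gene without a promoter peak, was at percentile 15.5 for GC. *Prdm1* (59.7%) and the upstream promoter of *Gfi1* (58.0%) were near the median, and the upstream promoter of *Zeb2* (49.3%) was below it.

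Among the 14 genes for co-repressor partners, LSD1 was at the promoter of 11 in Veh and 14 in GSK, where 40.9% and 46.9% of all protein-coding genes had it and 10.8% had it in GSK only. *Rcor1* and *Bcor* were among those called in GSK only, at folds of 3.94 and 4.55. H3K4me3 covered all 14 in both treatments (56.3% and 57.5% of all genes). H3K27ac was called at 6 and 4 (22.9% and 9.55% of all genes) and Pol II at 7 and 5 (33.1% and 28.1%). H3K4me2 was called at 8 and 10 (44.2% and 32.0%), and H3K4me1 at 7 and 7 (33.3% and 40.4%). *Kdm1a*, which codes for LSD1 itself, had LSD1 at its own promoter at 4.40 in Veh and 5.96 in GSK, with H3K4me3 at 6.33 and 6.86.

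The genes most like each member were those with the smallest mean absolute difference in fold percentile over the 12 lists. A list without a promoter peak counted as percentile 0. *Gfi1* was closest to *Tshz1* (0.568 percentage points), *Phox2a* (1.11) and *Kctd8* (1.12). The percentiles of *Gfi1* itself were at most 5.99, so genes with few or no promoter peaks also come out close to it. *Insm1* was closest to *Hpcal1* (4.94), *Adra2a* (5.27) and *Sp6* (5.40), and *Snai1* to *Surf6* (7.53), *Cherp* (9.06) and *Clasp2* (9.90). *Snai3* was closest to *Crtc2* (6.33), *Nat9* (6.90) and *Tmem104* (6.90). *Zeb1* had no neighbor nearer than *Mettl15* (8.37), followed by *Zswim8* (10.6) and *Cryzl1* (11.3). *Zeb2* was closest to *Cracr2b* (5.63), *Plxnb2* (6.52) and *Kcna2* (6.68), and *Bcl6* to *Ptpn7* (5.74), *Sh2d1a* (6.52) and *Mllt3* (7.02). *Prdm1* and *Gfi1b* had promoter peaks in fewer than 6 lists and were not matched.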

How the data were processed

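ChIP-seq peak lists of LSD1, H3K4me1, H3K4me2, H3K4me3, H3K27ac and Pol II in Veh- and GSK-treated CD8+ T cells were used, 12 in all with 1 library each. The 4 input samples were not analysed here. The authors aligned reads to unique positions of mm10 (Bowtie2), discarded PCR duplicates (Samtools) and ran MACS2 on each library. Input served as the control, though which input sample went with which call is not stated. The study's methods give unequal read totals for the libraries. They also state that libraries were brought to equal read numbers by random picking, but not whether peaks were called before or after this step. The deposited lists hold none, so peaks could not be scaled to depth, and the precision of a fold is unknown. The deposited fold of a peak is a ratio, the enrichment of ChIP reads over the local background. The authors also deposited −log10 p and −log10 q values, and a summit for LSD1 and Pol II. The lowest deposited −log10 p was 3.01 for LSD1 and 3.00 for Pol II, whereas the histone lists began at a −log10 q of 3.01 to 3.03 and were thus held to a stricter level.

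TSSs came from curated RefSeq transcripts (GRCm38.p6). A peak was assigned at 1 bp of overlap, positions are the summit for LSD1 and Pol II and the middle of the region for histone marks, and the highest fold was taken per gene. Percentiles are ranks of a fold among all peaks of its own list. Intervals are Wilson 95% intervals and cover counting error only, not the spread between libraries. The members and gene lists were chosen with earlier results of these data known. All 9 genes are named, with the neighbors whose TSS had a peak in a window, up to 4 genes of each listed group (all 5 of the SNAG list), the strongest LSD1 peak elsewhere, the strongest peaks of 1 treatment only and, for genes with promoter peaks in at least 6 lists, the 3 closest genes. The steps ran in Python (pandas 2.3.3, SciPy 1.17.1, pysam 0.24.0). The overlap call was checked on 400 simulated promoters with peaks placed by the same 1 kb rule, and all were called right. Of 2000 simulated Wilson intervals, 95.6% held the true share. The fold, percentile and motif steps were not simulated. The alternatives were other promoter windows, thresholds, list lengths, flanks and motif windows.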

Additional observations from a re-analysis of the deposited data

How the results depend on the processing

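Of 158 alternative values computed for 33 main results, 141 stayed within 1.5 times the main count or inside its interval. The intervals are wide at these small counts, so this number is no measure of stability. It includes changes of direction, as in the GSK to Veh ratio of peaks elsewhere. That ratio went from 0.667 to 2.00 for H3K27ac with lists of equal length, and from 1.67 to 0.917 for Pol II with flanks of 50 kb. At a −log10 q of at least 5, LSD1 promoters fell to 3 in Veh and 2 in GSK, H3K27ac promoters in Veh to 1 and Pol II promoters to 2 in Veh and 0 in GSK. Shares of all genes were not computed for the alternatives. The same threshold left a GSK to Veh ratio of 0 for the LSD1 and for the Pol II peaks elsewhere, and an overlap of 0% for each, since no GSK peak remained there. Promoters of 2.5 kb on either side gave 5 genes with H3K4me1 in Veh. Lists of equal length gave 1 gene with H3K27ac in Veh and an overlap of 0% for H3K27ac elsewhere. With GSK peaks as the units, the overlap was 50.0% for LSD1 and 100% for H3K27ac, and with a minimum of 50% of the Veh peak it was 0% for Pol II. In windows of 200 bp the share was 0% for AAATCA in Veh and for TTCNNNGAA in GSK. Ranked by −log10 p, 22 of 26 changes in promoter rank kept their sign. The others became 6.61 points for H3K4me3 at *Gfi1*, -2.25 for LSD1 at *Insm1*, 3.71 for H3K4me3 at *Snai1* and 3.45 for H3K4me3 at *Prdm1*. The causes were not tested. No paired analysis was possible because each antibody and treatment has 1 library. With 1 library per list and unequal read totals, a peak found in 1 treatment only may lie just below the threshold of the other list.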

Other observations

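Several neighbors of the 9 genes had peaks of their own in the windows, and 24 of the 99 peaks elsewhere lay at the TSS of another curated gene. The promoter of *Tsc1*, beside *Gfi1b*, had H3K4me3 at folds of 8.04 in Veh and 8.52 in GSK, H3K4me2 at 4.88 and 4.76, H3K4me1 at 4.60 and 5.0 and LSD1 at 4.41 and 4.53. Pol II was called there in GSK only, at 3.02. Beside *Snai3*, the promoters of *Rnf166* and *Ctu2* had H3K4me3 at 4.97 and 4.67, and the promoter of *Mvd*, an enzyme of cholesterol synthesis, at 5.15 and 4.93. H3K4me2 was called at both places in Veh only (4.21 and 3.60), and at *Mvd* Pol II was called in Veh only (4.99). With lists of equal length the H3K4me2 peak at *Rnf166* and *Ctu2* stayed in the Veh list and the one at *Mvd* dropped out. The TSS of *4930428O21Rik*, beside *Gfi1*, had H3K27ac in Veh only (3.92), also with lists of equal length, and H3K4me3 in GSK only (4.42).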
